A study of Mus musculus with 6 samples.

Results

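Aminoacyl-tRNA synthetases are the enzymes that load each transfer RNA with its amino acid, and their mRNAs were followed here in mouse erythroid cells with reduced Foxo3. The members were taken by gene name: every non-control probe named by a single letter followed by ars or ars2, together with Eprs, Farsa, Farsb, Ears2, Pars2, Tarsl2 and the scaffold genes Aimp1 and Aimp2. This gave 50 of 55681 probes, for 40 of 34797 gene names on the array. Of these, 21 genes encode cytosolic enzymes or their subunits, 17 encode mitochondrial enzymes and 2 encode scaffold proteins.

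The cells were G1E-ER-GATA-1, a mouse erythroid precursor line without endogenous GATA-1 that carries GATA-1 joined to the estrogen receptor's ligand-binding domain, so that β-estradiol activates it. All samples were of this single line. One group received siRNA against Foxo3 and the other nontargeting siRNA, by electroporation at 0 h and 24 h, with estradiol added to both groups at 24 h and total RNA taken at 48 h. Each group had 3 replicates, each hybridised alone to a Cy3 array from 0.1 µg of RNA. No untreated cells and no cells without estradiol were part of the comparison. The labels do not say that replicates came from separate cultures, so a p-value here reflects the spread among samples that may be technical repeats.

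Cells keep separate sets of these enzymes for protein synthesis in the cytosol and in mitochondria. Both sets are encoded in the nucleus. Most amino acids have one gene for each compartment, whereas Gars and Kars each serve both compartments from a single gene. Gars and Kars are counted here as cytosolic. Some cytosolic synthetases assemble on the scaffolds AIMP1, AIMP2 and EEF1E1 into the multisynthetase complex. Several cytosolic synthetase genes are known targets of ATF4, the transcription factor that is induced when amino acids run short. FOXO3 is a forkhead transcription factor that acts in erythroid maturation, stress resistance and autophagy.

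The measurements come from probes of 60 bases, and those the results turn on are shown here with positions on mouse build mm9 as the array design gives them. The Dars and Qars probes are shown whole because their positions span more than their length, so each reads across an exon junction. Of the Tarsl2, Gars, Wars, Cars2 and Pars2 probes the first 30 bases are shown. Wars has a pair of probes that gave like values, and Cars2 and Pars2 each have a pair whose values differed. Exon and UTR annotation of mm9 was not used here, so the place of the other probes within their transcripts is not given. Sequences are 5′ to 3′, as the array files list them.
Dars, chr1:130310284-130311944, minus strand: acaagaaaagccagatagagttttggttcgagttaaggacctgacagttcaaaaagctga
Qars, chr9:108417534-108418156, plus strand: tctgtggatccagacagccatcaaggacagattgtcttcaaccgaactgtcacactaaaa
Tarsl2, chr7:72836712-72836771, plus strand: tatttttatggctgctttactaaagttcac
Gars, chr6:55029377-55029436, plus strand: aactcatcatgtccactacacagagcattg
Wars brighter probe, chr12:110098245-110098304, minus strand: actctgagtgttctgtccttgcatcatttt
Wars dimmer probe, chr12:110104366-110104425, minus strand: agtgcctcatcccgtgtgccattgaccagg
Cars2 brighter probe, chr8:11547757-11547816, minus strand: aggatcctgaccagagtgtttggatgcaat
Cars2 dimmer probe, chr8:11516152-11516211, minus strand: catcacttcctacgttgagcagtttttcga
Pars2 brighter probe, chr4:106327826-106327885, plus strand: gggtcacttcagcactgagatcatgttctg
Pars2 dimmer probe, chr4:106326033-106326092, plus strand: aagcttgtgcgggtgatagaccaggagatg

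Levels are given as scaled log2 signals, that is, the log2 of the background-subtracted spot intensity minus the 75th percentile of its array, so that 0 is the level of a probe at that percentile. A difference is the mean of the Foxo3 siRNA arrays minus the mean of the nontargeting arrays, in log2 units. A probe counts as detected on an array where the scanner software marked it well above background. Probes detected on every array of either siRNA group were tested, and a gene is given by its brightest tested probe. Higher, lower, rose and fell mean an adjusted p under 0.05 in limma's moderated test, with Benjamini-Hochberg adjustment over all 26985 tested probes. Of the members, 47 probes for 39 genes were tested. Nars2, the mitochondrial asparaginyl enzyme, was detected on no array and was not tested. The same filter removed the second probes of Aars and Vars2.

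The Foxo3 probe on the RefSeq transcript fell by 2.42 on the log2 scale, to 18.6% of the nontargeting level (SE 0.340, limma adjusted p = 0.00533). Its scaled log2 signals were −0.46, −1.29 and −1.89 after Foxo3 siRNA, below the nontargeting values of 1.23, 1.28 and 1.12. It was detected on 2 of 3 arrays with Foxo3 siRNA, and its fall was 1.67 when Foxo3 siRNA replicate 1 alone was set against the nontargeting arrays, which shared its slide row. The other Foxo3 probe, on a cDNA clone and the brighter of the pair, differed by 0.25 (limma adjusted p = 0.258). All 12 erythroblast markers examined were measured. Of these Rhag and Tfrc rose (16.7%, against 13.0% of all gene names), by 1.40 and 0.60, Tfrc on 1 of its 3 tested probes. None of the 12 markers fell in limma's test, and 3 were lower at an unadjusted p under 0.05. For a summed signal, the markers were added before the log2 was taken, so the brightest weigh most. That of these 12 markers, on the scaled log2 scale, was 11.9 to 12.4 with Foxo3 siRNA and 12.5 to 12.6 with nontargeting siRNA, without overlap. Taken gene by gene, 6 of the 12 had a positive difference and the median was 0.01. Of the markers of other blood cells, 7 of 9 megakaryocyte markers were tested and 3 rose (Treml1 by 2.50, Itga2b by 1.26 and Gp1ba by 0.59). This was 42.9% of those tested, against 13.0% of all gene names. No megakaryocyte marker fell in limma's test. Of the 7 tested, however, 3 had a negative difference, down to −0.68, and 1 was lower at an unadjusted p under 0.05. Only 2 of 7 mast cell, 3 of 11 neutrophil and monocyte and 2 of 7 lymphocyte markers passed the filter. None of these was called by limma on its brightest tested probe, although 0, 2 and 1 of them were lower at an unadjusted p under 0.05. The lymphocyte marker Cd79a was called lower on 1 of its 2 tested probes. Among the untested markers, 3 mast cell, 4 neutrophil and monocyte and 4 lymphocyte markers were detected on no array. The summed signal of the megakaryocyte markers ran from 5.31 to 6.16 with Foxo3 siRNA and from 5.29 to 5.90 with nontargeting siRNA. That of the 3 neutrophil and monocyte markers was 4.12 to 4.17 against 4.32 to 5.23, and that of the 2 lymphocyte markers 1.79 to 2.12 against 2.19 to 2.64, both lower with Foxo3 siRNA and without overlap. That of the 2 mast cell markers was −0.92 to −0.15 against −0.78 to −0.30, with overlap. The part of such cells or states in the synthetase values was not tested. All 6 arrays shared 1 slide and 1 scan date, but the 3 nontargeting arrays and Foxo3 siRNA replicate 1 lay in the first slide row and Foxo3 siRNA replicates 2 and 3 in the second. Foxo3 siRNA replicate 3 was dimmer near background, with 20191 detected spots against 30484 to 37315 on the other arrays. In bulk RNA, a change in the share of cells of a kind and a change in mRNA per cell cannot be told apart.

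The differences of the synthetase mRNAs lay mostly above the median of the tested genes. Of the 39 tested genes, 30 had a positive difference (76.9%), against 39.0% of all 19219 gene names tested. Their median difference was 0.31, whereas the median of all gene names was −0.16, a value that depends on the filter on dim probes. In the test of single genes, 12 of the 39 were called (30.8%), near the 26.2% called among all gene names. By direction, 10 rose (25.6%, against 13.0% of all gene names) and 2 fell (5.13%, against 13.2%). The siRNA groups did not overlap for 23 genes (59.0%), as was so for 50.9% of all gene names. These counts carry no test of the group as a whole.

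**Figure D1:**
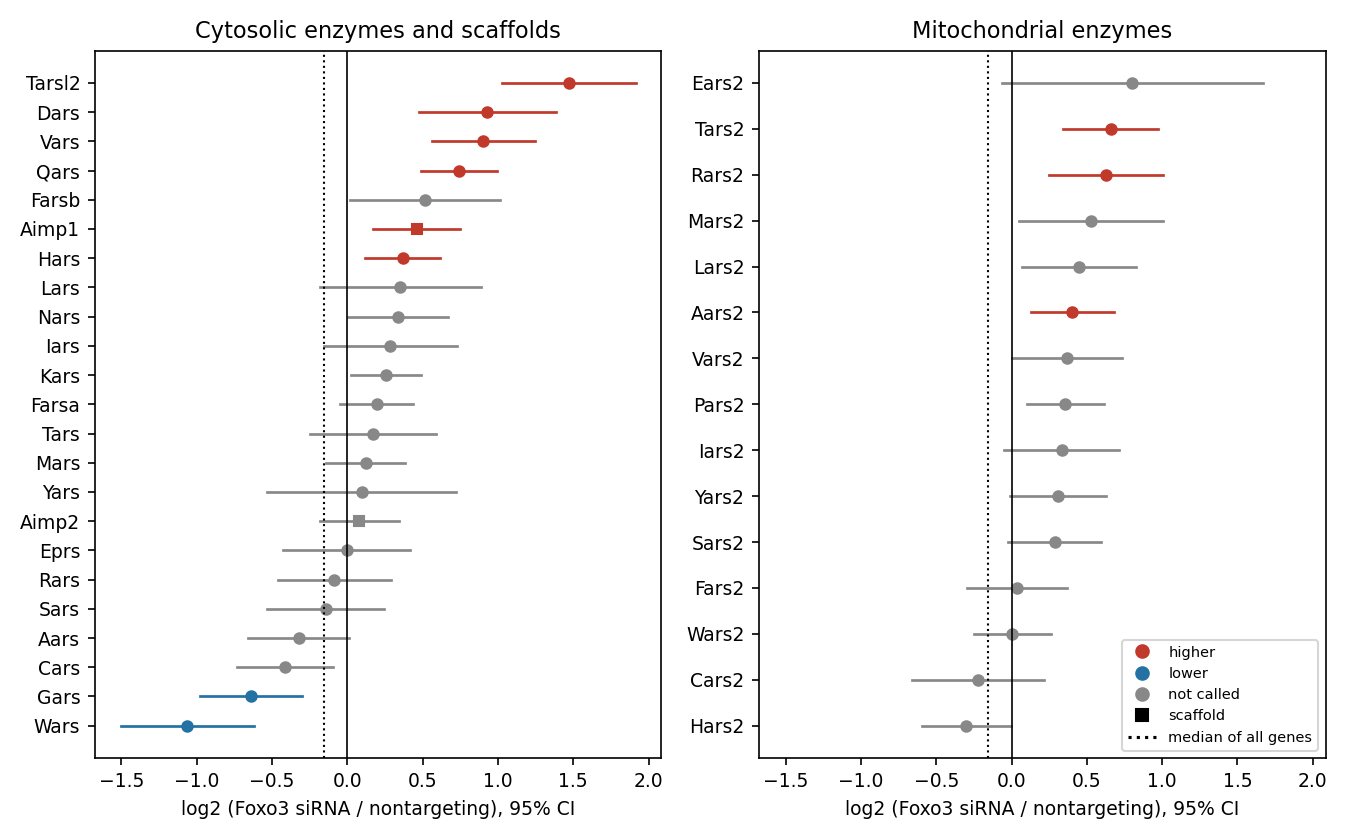
Difference in log2 signal between the Foxo3 siRNA and nontargeting arrays (x axis) for 38 of the 39 tested genes, with 95% confidence intervals from limma and 3 arrays per group. Red and blue mark genes with an adjusted p under 0.05, squares mark the scaffolds, and the dotted line is the median of all gene names at −0.16. Wars and Gars are the only genes called lower, and among the mitochondrial enzymes only Cars2 and Hars2 lie left of 0.

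The choice of scaling sets where 0 lies. With arrays scaled to their median in place of the 75th percentile, the median of all probes moved from −0.16 to 0.15. Of all called probes, 77.2% were then higher, against 47.6% with the percentile scaling, and 35 of the 39 synthetase genes had a positive difference. Measured from the median of all probes, the members' median stood 0.47 higher, the cytosolic median 0.36 and the mitochondrial median 0.53. Both of these scalings shift every probe of an array alike, so the gaps cannot change between them. Quantile normalization does not shift all probes alike, and there the gaps were 0.43, 0.40 and 0.47. They also depended on which probes made up the whole. Without the filter on dim probes the median of all probes was 0.07, and the gaps were 0.24 for all members, 0.12 for the cytosolic and 0.29 for the mitochondrial enzymes. With probes detected on all 6 arrays, the median of all probes was 0.00 and the gaps were 0.30, 0.23 and 0.35 over the 36 members left. With the slide row as a block, the gaps were 0.28, 0.17 and 0.36.

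Among the 21 cytosolic genes, 5 rose and 2 fell, so that 33.3% were called, against 26.2% of all gene names. Their differences ran from −1.06 to 1.47 with a median of 0.19, and 14 were positive. The largest rise was in Tarsl2, which encodes a second cytosolic threonyl-tRNA synthetase beside Tars. Its scaled log2 signals were 0.42, 0.84 and 0.64 on the Foxo3 siRNA arrays, against −1.16, −0.62 and −0.73 on the nontargeting arrays. The lowest Foxo3 siRNA array was thus more than a full log2 unit above the highest nontargeting array. The difference was 1.47, a 2.77-fold rise (SE 0.185, limma adjusted p = 0.00397). Tars itself, the main cytosolic threonyl enzyme, gave 4.91, 5.41 and 5.22 against 4.79, 5.18 and 5.07. These values overlapped, and the difference was 0.17 (limma adjusted p = 0.468). In the authors' deposited table, Tarsl2 was the only member with an adjusted p under 0.05 (log2 fold change 1.42, adjusted p = 0.0439).

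Dars, the aspartyl enzyme and a member of the multisynthetase complex, was measured at 2.61, 2.00 and 2.00 with Foxo3 siRNA and at 1.18, 1.34 and 1.31 with nontargeting siRNA. The groups did not overlap, and Foxo3 siRNA replicate 1 stood above the other two arrays of its group. The difference was 0.93 (SE 0.189, limma adjusted p = 0.0171). Without Foxo3 siRNA replicate 1 it was 0.73 (adjusted p = 0.0168). Vars, the cytosolic valyl enzyme, was at 4.01, 3.91 and 3.91 against 3.22, 3.11 and 2.79. All 3 Foxo3 siRNA arrays were close together, well clear of the nontargeting arrays, and the rise was 0.90 or 1.87-fold (SE 0.143, limma adjusted p = 0.00774). Qars, the glutaminyl enzyme of the complex, had little spread within either group. Its values were 5.74, 5.78 and 5.73 against 4.97, 5.11 and 4.94, a rise of 0.74 or 1.67-fold (SE 0.104, limma adjusted p = 0.00537). Hars, the cytosolic histidyl enzyme, rose by 0.37 (SE 0.103, limma adjusted p = 0.0438), from 3.54 ± 0.08 to 3.91 ± 0.03 (SD, n = 3 in each group).

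The cytosolic genes that fell were Wars and Gars. Wars encodes tryptophanyl-tRNA synthetase, also known as an interferon-induced gene. Its brighter probe was at 5.59, 5.88 and 5.98 with Foxo3 siRNA and at 6.58, 6.92 and 7.14 with nontargeting siRNA, a 2.09-fold fall (log2 difference −1.06, SE 0.184, limma adjusted p = 0.0101). The dimmer probe lies at another site of the gene and was at 2.25, 2.61 and 2.78 against 3.32, 3.81 and 3.83. It fell by 1.11 (SE 0.202, limma adjusted p = 0.0119), so both probes gave about the same change, with no overlap between groups on either. Gars, the glycyl enzyme of both compartments, was at 5.75, 5.93 and 5.74 against 6.22, 6.49 and 6.63. Here too every Foxo3 siRNA array lay below every nontargeting array, and the difference was −0.64, a 1.56-fold fall (SE 0.142, limma adjusted p = 0.0222). With median scaling the Gars difference was −0.33 (adjusted p = 0.430) and the Wars difference −0.75 (adjusted p = 0.0464).

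The other 14 cytosolic genes did not pass the test. Cars and Aars, the cysteinyl and alanyl enzymes, came next below 0, with differences of −0.42 (limma adjusted p = 0.0617) and −0.32 (adjusted p = 0.127), and in both every Foxo3 siRNA array was below every nontargeting array. Sars, Rars and Eprs were at −0.14, −0.09 and −0.01. On the positive side were 9 genes, from Yars at 0.09 to Farsb at 0.52. Kars, the lysyl enzyme that serves both compartments, had the smallest spread of them. It was at 5.47, 5.48 and 5.46 against 5.21, 5.24 and 5.19, and this difference of 0.26 did not pass (SE 0.0968, limma adjusted p = 0.0925). Kars and Gars, which share the double role, therefore lay on opposite sides of 0. Farsa and Farsb, the 2 subunits of the cytosolic phenylalanyl enzyme, were at 0.19 and 0.52, with adjusted p-values of 0.185 and 0.107. The 3 Farsa probes ran from 0.19 to 0.43, all positive. Yars was detected on 2 of 3 arrays with Foxo3 siRNA.

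**Figure D2:**
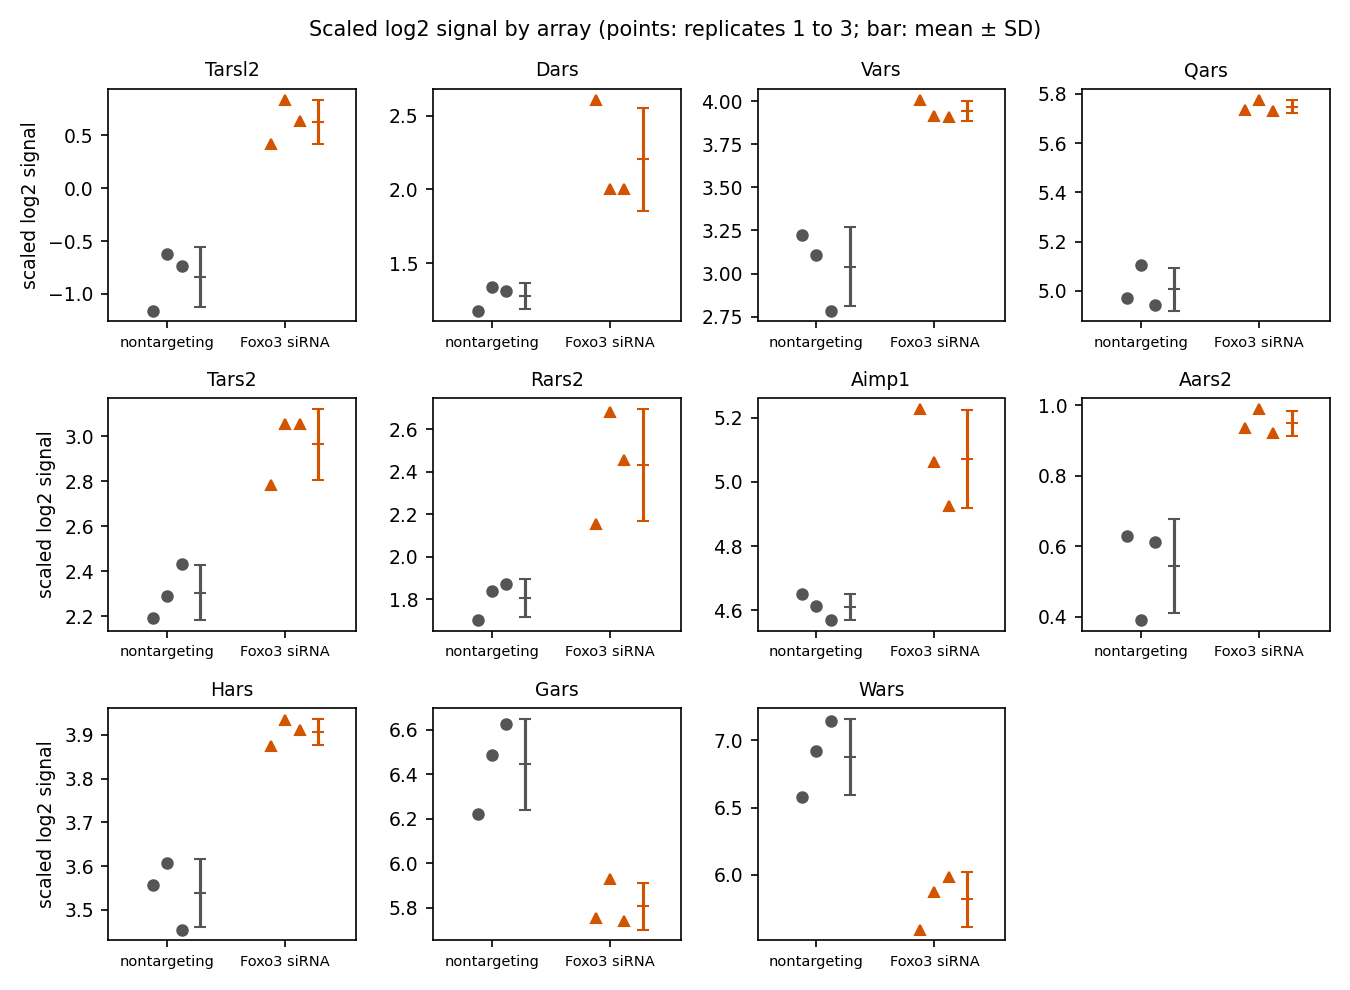
Scaled log2 signal on each array (y axis, a range of its own in each panel) for 11 of the 12 called genes, with nontargeting arrays in grey, Foxo3 siRNA arrays in orange, and bars for the mean ± SD of 3 arrays. In every panel the groups are apart, and only in the Gars and Wars panels do the Foxo3 siRNA arrays lie below.

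Among the 16 tested mitochondrial enzymes, which leave out Gars and Kars, 4 rose and none fell in limma's test. The share called was thus 25%, near the 26.2% of all gene names. At an unadjusted p under 0.05, 8 were higher and 1, Hars2, was lower. The share of all gene names at an unadjusted p was not counted, so such counts, here and for the other lists, have no background. Differences of the mitochondrial enzymes ran from −0.30 to 0.80 with a median of 0.36, and 14 of 16 were positive. Tars2, the mitochondrial threonyl enzyme, was at 2.78, 3.05 and 3.05 against 2.19, 2.29 and 2.43. The groups were apart and the rise was 0.66 (SE 0.132, limma adjusted p = 0.0160). Its second probe rose by 0.59 (adjusted p = 0.0195). Rars2, the arginyl enzyme, was at 2.16, 2.68 and 2.46 against 1.70, 1.84 and 1.87, a rise of 0.63 (SE 0.159, limma adjusted p = 0.0327). Foxo3 siRNA replicate 1 was the lowest of its group and still above all nontargeting arrays.

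Aars2, the alanyl enzyme, was at 0.94, 0.99 and 0.92 against 0.63, 0.39 and 0.61, and its rise of 0.41 was just past the threshold (SE 0.114, limma adjusted p = 0.0446). Ears2, the glutamyl enzyme, had the largest mitochondrial difference at 0.80 but did not pass (SE 0.361, limma adjusted p = 0.137). Its nontargeting values of −2.13, −2.64 and −1.16 were widely spread and overlapped the Foxo3 siRNA values of −1.33, −1.15 and −1.03. The positive differences of Mars2, Lars2, Vars2, Iars2, Yars2 and Sars2 lay between 0.29 and 0.53 and did not pass either. Mars2 and Vars2 were each detected on 2 of 3 arrays with Foxo3 siRNA. Fars2 and Wars2 were at 0.04 and 0.00, and the second Wars2 probe was also at 0.00. The second Iars2 probe was at 0.04. Hars2, the histidyl enzyme, had a difference of −0.30 (adjusted p = 0.111), with every Foxo3 siRNA array below every nontargeting array.

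For Cars2 and Pars2 the answer depended on the probe. The brighter Cars2 probe was at −0.50, −0.83 and −1.05 against −0.47, −0.81 and −0.44, with overlap and a difference of −0.22 (limma adjusted p = 0.370). The dimmer one was at −1.01, −0.72 and −0.73 against −1.77, −1.68 and −1.56, with no overlap and a rise of 0.85 (SE 0.131, adjusted p = 0.00725). The probes lie at separate sites on mm9, and whether they read the same transcripts was not tested. The brighter probe of Pars2, the mitochondrial prolyl enzyme, was at 0.79, 0.91 and 0.85 against 0.48, 0.58 and 0.42, a difference of 0.36 that missed the threshold (SE 0.106, limma adjusted p = 0.0518). Its dimmer probe went the other way, at −3.72, −3.27 and −3.81 against −2.97, −2.91 and −2.21 (difference −0.91, SE 0.251, adjusted p = 0.0423). That probe was detected on 2 of 3 arrays with Foxo3 siRNA. Counting a gene as called when any tested probe passed, a rule added after the values were seen, gave 11 genes higher and 3 lower. That rule gives genes with several probes more chances of a call. Its share over all gene names was not counted, so these counts have no background.

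Cytosolic and mitochondrial enzymes were set side by side in 2 ways. First, each gene was centred on its mean over the 6 arrays and the median taken over each class. The mitochondrial medians were 0.09, 0.28 and 0.20 on the Foxo3 siRNA arrays and −0.33, −0.09 and −0.14 on the nontargeting arrays, so the groups were apart. The cytosolic medians were −0.06, 0.14 and 0.14 against −0.27, −0.07 and 0.04, and these overlapped. The difference between classes has no test here, because the members of a class are not replicates. Its size also depended on the processing. The median differences were 0.19 for the cytosolic and 0.36 for the mitochondrial enzymes as reported. They lay closer together with quantile normalization, at 0.28 and 0.35, and with normexp background correction, at 0.21 and 0.27.

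Second, the log2 ratio of the cytosolic over the mitochondrial enzyme for the same amino acid was taken within each array. This removes any scaling that shifts every probe of an array alike. There were 17 such pairs, in which Eprs and Fars2 each entered 2. The ratio moved towards the mitochondrial enzyme in 12 pairs and towards the cytosolic one in 5, with a median of −0.22. In 8 pairs the groups did not overlap, 7 of them towards the mitochondrial side. This was 47.1% of the pairs, near the 50.9% of single gene names whose groups did not overlap. The exact two-sided permutation test gave p = 0.100 for each of these 8, the smallest that 3 against 3 arrays allow, and 0.213 after Benjamini-Hochberg adjustment over the 17 pairs.

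The widest shift between brightest probes was in the tryptophanyl pair, Wars over Wars2, at −1.07. Relative to the nontargeting mean its ratio was −1.40, −0.95 and −0.86 on the Foxo3 siRNA arrays and −0.29, −0.01 and 0.30 on the nontargeting arrays. Wars2 itself had a difference of 0.00, so the fall of Wars made up this shift. The alanyl pair moved by −0.73, through Aars at −0.32 and Aars2 at 0.41. The arginyl pair moved by −0.71, and there Rars was at −0.09 while Rars2 rose. The threonyl pair, Tars over Tars2, moved by −0.49 and the seryl pair by −0.43. Eprs, which charges both glutamate and proline, moved by −0.81 against Ears2 and by −0.36 against Pars2, the latter only with the brighter Pars2 probe. The histidyl pair was the exception among those without overlap. Hars over Hars2 moved by 0.67 towards the cytosolic side, at 0.71, 0.57 and 0.73 against 0.15, 0.05 and −0.20, with Hars up and Hars2 at −0.30.

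In 6 pairs a gene had a further tested probe, and the ratios were taken again with it, a step added after the values were seen. With the dimmer Pars2 probe the ratio of Eprs over Pars2 turned to 0.90, again without overlap. The ratio of Cars over Cars2 was −0.19 with the brighter Cars2 probe, where the groups overlapped, and −1.26 with the dimmer one, where they did not. Iars over Iars2, with overlap on both probes, went from −0.05 to 0.25. The direction thus turned in 2 of the 8 ratios so taken. Tars over Tars2 was at −0.42 and Wars over Wars2 at −1.11 and −1.07, all without overlap.

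**Figure D3:**
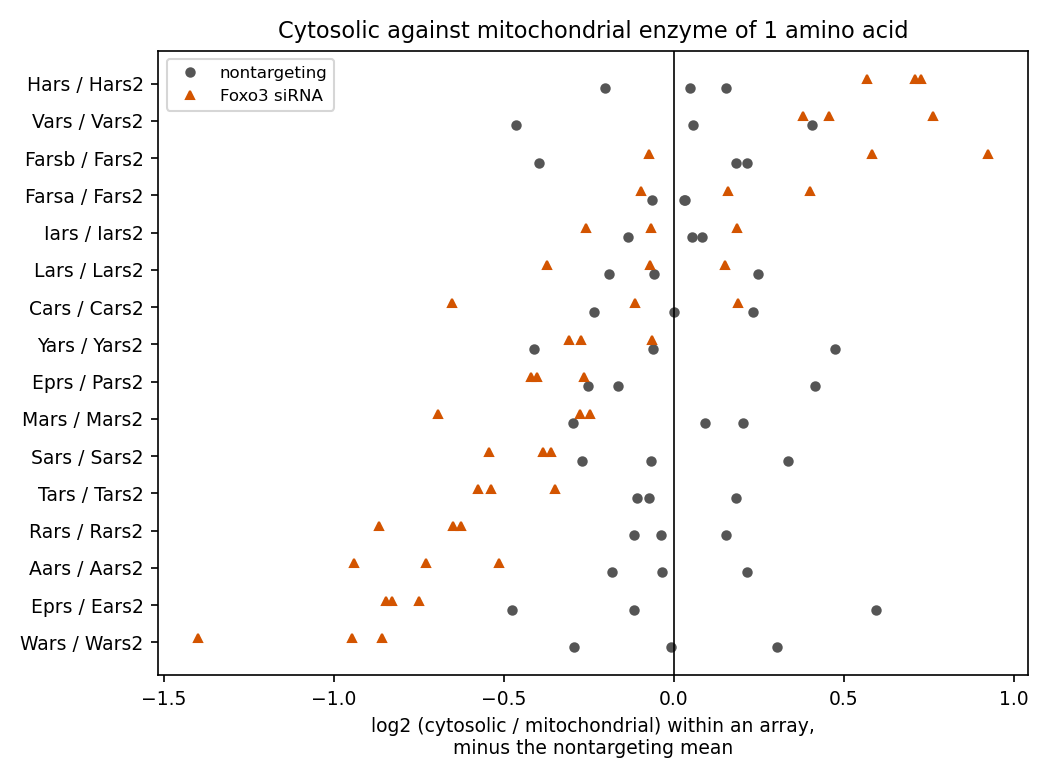
Log2 ratio of the cytosolic to the mitochondrial enzyme of the same amino acid within each array, minus the mean of the nontargeting arrays (x axis), for 16 of the 17 pairs and 3 arrays per group. Foxo3 siRNA arrays (triangles) lie left of all nontargeting arrays (circles) in 7 pairs and right of them in the Hars and Hars2 pair.

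The cytosolic genes were also read by the assembly and the fold of their products. In the multisynthetase complex, 3 of 11 measured members rose (Dars, Qars and Aimp1), with a median of 0.29. None fell in limma's test, nor was any lower at an unadjusted p under 0.05. The share called was 27.3%, near the 26.2% of all gene names, and the groups were apart for 45.5% of its members, against 50.9%. Aimp1, whose product is a scaffold that is also secreted as a cytokine, was at 5.23, 5.06 and 4.92 against 4.65, 4.61 and 4.57. The groups were apart, and the rise was 0.46 (SE 0.119, limma adjusted p = 0.0353). The second scaffold, Aimp2, was at 0.08 (adjusted p = 0.584) and the third, Eef1e1, at 0.60 (adjusted p = 0.0741). The 8 synthetases of the complex had a median of 0.27, and the 13 cytosolic genes outside it a median of 0.17. Both genes that fell, Wars and Gars, are outside the complex, as are Tarsl2, Vars and Hars among those that rose. Synthetases have one of 2 unrelated catalytic folds. Of the 9 cytosolic class I enzymes 2 rose and 1 fell (median 0.12), and of the 11 class II enzymes or subunits 3 rose and 1 fell (median 0.26). The shares called were 33.3% and 36.4%, against 26.2% of all gene names, and the folds were not tested against each other. Eprs holds one domain of each fold and was counted in neither.

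The promoters were searched for 3 short motifs because ATF4 is a known activator of cytosolic synthetase genes and FOXO3 was the targeted factor. RefSeq promoters (build GRCm38.p6) were found for 30 of the 40 genes, and the 250 bases before the start were read on both strands. Members were counted by gene, with a match in any of its promoters (32 promoters for the 30 genes), whereas the whole was counted by promoter. The ATF4 and C/EBP composite core TGATGNAA occurred in 3 of 14 cytosolic genes, Aars, Gars and Tars, and in 0 of 14 mitochondrial ones, against 3.45% of all 32851 promoters. The FoxO core GTAAACA occurred in 0 cytosolic and 2 mitochondrial promoters, those of Iars2 and Vars2, against 3.17% of all. The E-box CACGTG occurred in the cytosolic Aars, Farsb and Iars and in no mitochondrial promoter, against 6.02% of all. A match is only a match of letters. Windows of 30 bases around the composite core in Gars and Tars and the FoxO core in Iars2 and Vars2 are shown with the motif, as it reads on the gene's strand, in capitals.
Gars, chr6:55037960-55037989, plus strand: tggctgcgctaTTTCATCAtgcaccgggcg
Tars, chr15:11399659-11399688, minus strand: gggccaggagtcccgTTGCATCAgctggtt
Iars2, chr1:185329485-185329514, minus strand: gccgagtgataGTAAACAcctctctctacc
Vars2, chr17:35667761-35667790, minus strand: cagatgtatttTGTTTACacaccgggatat
Of the genes with the composite core, Gars fell, Aars was at −0.32 and Tars at 0.17. Of those with the FoxO core, Iars2 was at 0.33 and Vars2 at 0.37, and neither passed the test.

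Other genes of amino acid supply and translation were read from lists. Among 34 tested genes of the ATF4 amino acid response, 10 fell (29.4%, against 13.2% of all gene names) and 3 rose (8.82%, against 13.0%), with a median of −0.36. Atf4 itself was at 6.84, 6.99 and 7.04 with Foxo3 siRNA and at 7.47, 7.82 and 8.08 with nontargeting siRNA, a fall of 0.84 (SE 0.175, limma adjusted p = 0.0185). Slc7a11, the cystine transporter, fell by 2.79 and was detected on 2 of 3 arrays with Foxo3 siRNA. Sesn2, a stress-induced inhibitor of mTORC1, fell by 1.20, and the transcription factors Atf5 and Cebpg fell by 1.53 and 1.33. Those that rose were Psat1 (0.81) and Shmt2 (0.64), of serine and glycine metabolism, and Eif2ak4 (0.39), which encodes the kinase GCN2 that senses uncharged tRNA. Eif2ak4 was called on only 1 of its 3 tested probes. Asns, asparagine synthetase, was at 0.03. The list thus had its median below that of all gene names, and the synthetases had theirs above it.

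Of 20 tested accessory genes of tRNA charging, 7 rose (35.0%) and 2 fell (10.0%), against 13.0% and 13.2% of all gene names, with a median of 0.28. Aarsd1 and Dtd2, which act on mischarged tRNA, rose by 0.74 and 0.79, and Pstk, a kinase in the making of selenocysteyl-tRNA, by 0.82. Of 28 cytosolic translation factors, 8 rose (28.6%) and none fell in limma's test (median 0.20), with 9 higher and 0 lower at an unadjusted p under 0.05. They were led by Eif4a1 and Eif2b3, each at 0.99, Eif4e at 0.68 and Eif2b4 at 0.67. Eif5, not called on its brightest probe, was called lower on 1 of its 2 tested probes. Of 13 mitochondrial translation factors, 4 rose (30.8%) and 1 fell (7.69%), with a median of 0.12. The elongation factor genes Tufm and Tsfm rose by 0.60 and 0.82 and the release factor gene Mtrf1 by 0.50, whereas the initiation factor gene Mtif2 fell by 0.56. Gatb, Gatc, Mtfmt and Qrsl1 count in both the accessory and the mitochondrial list.

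**Figure D4:**
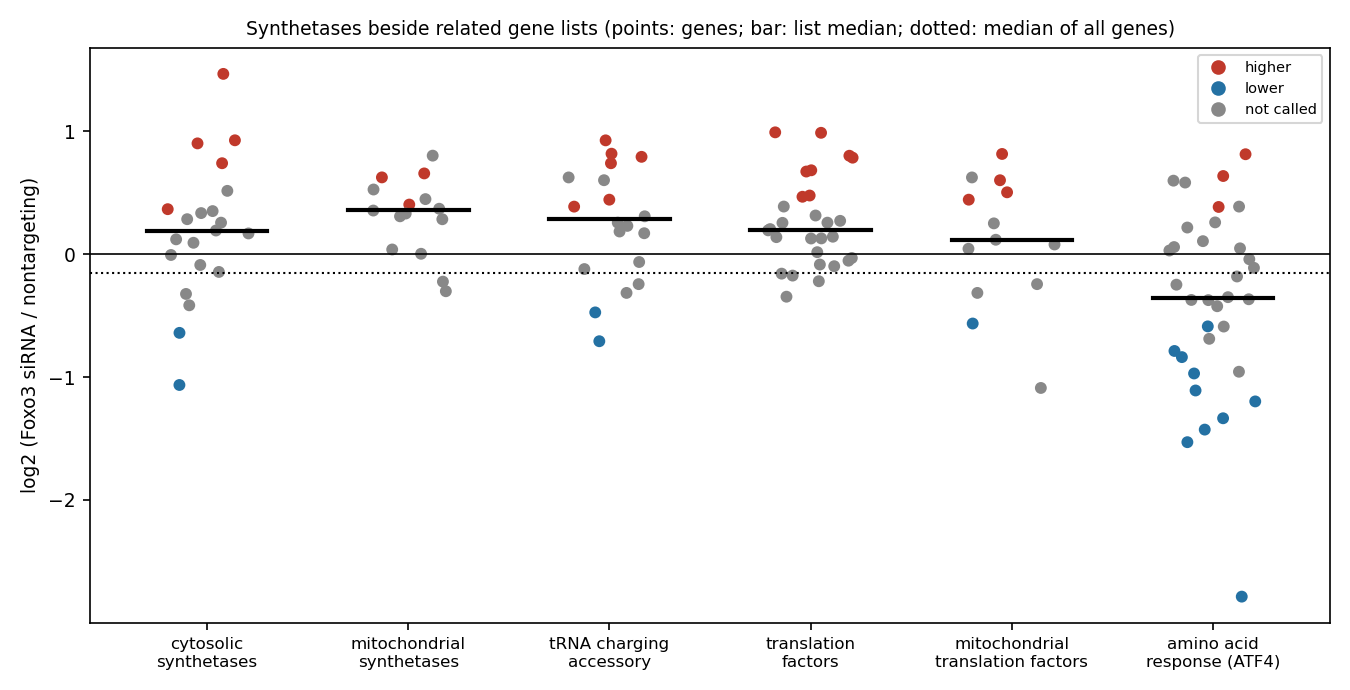
Difference in log2 signal between the Foxo3 siRNA and nontargeting arrays (y axis), with a point for each tested gene but 1 in the mitochondrial and 1 in the accessory set, over the synthetase classes and the related lists, the median over each whole list as a bar and the median of all gene names as a dotted line. The amino acid response list has its median at −0.36, below the dotted line, and the other 5 sets have theirs above 0.

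How firmly each call stood was read by leaving out 1 array at a time. Tarsl2, Vars and Qars passed in all 6 omissions, with limma adjusted p up to 0.0217, 0.0407 and 0.0296. The Wars call was lost only without nontargeting replicate 2, where the adjusted p was 0.0534. Dars lost its call without nontargeting replicate 1, 2 or 3 (adjusted p = 0.0635, 0.0648 and 0.0511). Gars passed without Foxo3 siRNA replicate 2 or nontargeting replicate 1 and missed without any of the others, at up to 0.0883. Tars2 passed only without Foxo3 siRNA replicate 1 or nontargeting replicate 3, and otherwise missed at up to 0.0718. Rars2 passed only without Foxo3 siRNA replicate 1 and otherwise missed at up to 0.101. Aimp1, Hars and Aars2 passed in none of the 6, with adjusted p up to 0.112, 0.119 and 0.144. Directions were the same in every omission for all 12 genes.

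The slide rows bear on the same calls, because no nontargeting array lay in the second row. Any comparison that takes the rows into account therefore rests on Foxo3 siRNA replicate 1 against the 3 nontargeting arrays. With the row as a block, 3 of the 39 genes were called, where 7.01% of all probes were. These were Dars at 1.33 (limma adjusted p = 0.0170), Tarsl2 at 1.26 (0.0491) and Wars at −1.29 (0.0443). Within the first row the differences are the same, since the second row adds only to the estimate of the error. There only Dars was called (limma adjusted p = 0.0360), where 4.14% of all probes were, and the lone array is assumed to vary like the others. The Dars value of 1.33 comes from the array at 2.61, the one that stood above its group. Tarsl2 missed in the first row alone (adjusted p = 0.0725), as did Wars (0.0697), Vars at 0.97 (0.0909) and Qars at 0.73 (0.0863). Gars was at −0.69. Rars2 was at 0.35, against 0.63 over all arrays, and Tars2 at 0.48 against 0.66. The medians in the first row were 0.07 for the cytosolic and 0.26 for the mitochondrial enzymes, against −0.10 for all probes.

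**Figure D5:**
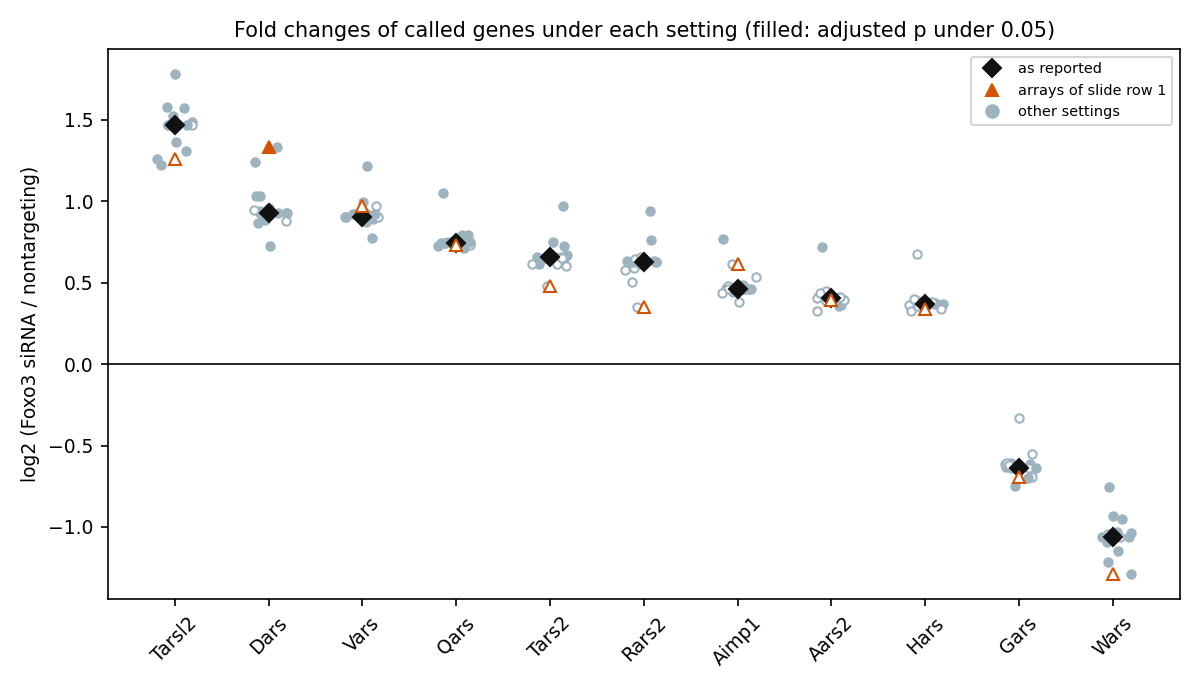
Difference in log2 signal (y axis) of 11 of the 12 called genes as reported (diamonds), within the first slide row (triangles) and under the other processing settings (circles), filled where the adjusted p is under 0.05. Each gene keeps its sign under every setting shown, and within the first row Dars moves from 0.93 to 1.33 and Rars2 from 0.63 to 0.35.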

How the data were processed

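Spot intensity in the scanner files comes from Feature Extraction 10.7.3.1, which subtracts background and replaces signals not above it with a surrogate, per the file headers. Positions are on mm9, per the file headers. The deposited series table repeats these intensity values and adds a log2 fold change with its p-value, raw and adjusted, for every spot. Per the submitters' processing notes limma was used, and the normalization behind these values is not given in the sources used here. That the fold change is on the log2 scale was read by setting it against the deposited intensity values.

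From 62976 spots per array, 3671 controls were left out and outlier spots set to missing (0 of them on members). Log2 signals were scaled by subtracting the array's own 75th percentile, spots of a probe were averaged, and the filter left 26985 probes. Groups were compared with limma 3.58.1 (lmFit and eBayes, two-sided) in R 4.3.3, without covariates, and the fit was tested on simulated data. Pair ratios used exact permutation tests. The number of arrays, 3 per group, limits the precision. Correlations of log2 signals were 0.984 to 0.993 within groups and 0.966 to 0.981 across them. Surrogates filled 50.2% of the spots of Foxo3 siRNA replicate 3 and 16.7% to 29.3% elsewhere.

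The members and lists were chosen with earlier results of these data known. The text names Foxo3, each called member, the 3 cytosolic and 3 mitochondrial members with the largest differences, members with no tested probe, Kars and Gars, and up to 4 genes per related list with the smallest adjusted p, besides Atf4. Other genes were named after their values were seen. Some genes and sequences that met these rules are not reported here, and the counts include them. Alternatives were other scalings, background correction, filters, blocks and left-out arrays.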

Additional observations from a re-analysis of the deposited data

How the results depend on the processing

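The count of synthetase genes called was 10 higher and 2 lower. Quantile normalization, normexp correction with an offset of 50, a filter on all arrays, outlier spots kept, 1 probe per gene and an intensity trend gave 7 to 12 higher and 2 or 3 lower. The share of all tested probes called in these settings ran from 22.1% with quantile normalization to 41.4% with the filter on all arrays. Median scaling gave 13 higher and 1 lower, where 19.3% of all probes were called. It moved the medians to 0.51 for cytosolic and 0.67 for mitochondrial enzymes, in step with the median of all probes, which went from −0.16 to 0.15. Without the filter on dim probes 0 were higher and 0 lower, where 1.14% of 55681 probes were called. The slide row as a block gave 2 higher and 1 lower, and the first slide row alone 1 higher and 0 lower. Leaving out 1 array gave 3 to 7 higher and 0 to 2 lower, with the fewest without nontargeting replicate 2. The share of all probes called was then 9.62% to 22.2%, and was also lowest without nontargeting replicate 2. With the replicate number as a block, 11 were higher and 3 lower, where 25.8% of all probes were called, and 10 of the 12 genes kept their call. Same-numbered arrays deviated together with r of 0.16, −0.31 and 0.11, so the numbers were not taken as pairs. The cause of the lower counts was not tested. No call changed sign. Signal over background limits the dim members, Yars, Mars2, Vars2 and Nars2 among them.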
